A study of Mus musculus with 8 samples.

Results

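Of the 36333 genes with a TPM value in these mouse ventral prostates, 6 that are listed under provisional names and differed widely between genotypes are described here: Gm42035, Gm29779, 1810062G17Rik and Gm36193, which were lower in hSKP2-KI mice, and Gm5615 and Gm41142, which were higher. They were selected by name from the genes with a poor annotation and a large difference between hSKP2-KI and wild-type (WT) mice, so the difference itself is described here without a test. TPM is a level per transcript length, scaled so that each library sums to 1000000, which allows levels of different genes to be set side by side. The number of reads behind a value is unknown.

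RNA was sequenced from ventral prostates taken at 12 months of age, 4 of them hSKP2-KI and 4 WT, with a separate mouse for each library. WT mice are labelled FVB/N wild type and hSKP2-KI mice FVB/N hSKP2 knock in. In the knock-in mice a P2A-linked human SKP2 coding sequence was placed in exon 1 of the endogenous probasin gene (Pbsn) on the X chromosome, so that the probasin promoter of prostate epithelium drives it, and heterozygous females were bred to wild-type FVB/N males to give the males used. Several founder lines were made, and which of them was sequenced is not given in the sources used here.

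Mouse gene symbols that start with Gm denote gene models predicted from sequence, and symbols that end in Rik denote clones of the RIKEN cDNA collection. Both are placeholders that are replaced when a gene acquires a function or a family, and many of them are long non-coding RNAs, transcripts that are spliced and polyadenylated but are not known to encode a protein. Such transcripts are often confined to few tissues and often lie beside, inside or opposite a protein-coding gene. Probasin, by comparison, is an androgen-regulated secretory protein of the prostate epithelium.

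The annotation gave the 6 genes different characters. 1810062G17Rik (Entrez 72282) is a protein-coding gene on chromosome 3 (GRCm38, 36475937 to 36482299, plus strand) with 3 exons, 911 exonic bases and an open reading frame of 129 codons. Gm5615 (Entrez 434396) is a protein-coding gene on chromosome 9 (36532403 to 36541963, minus strand) with 3 exons, 2348 exonic bases and 101 codons. RefSeq names it Pate9, a member of the PATE (prostate and testis expressed) family of small, cysteine-rich secreted proteins of the Ly6/uPAR type. Gm36193 (Entrez 102640018) is a long non-coding RNA on chromosome 15 (58245922 to 58253360) with 20 RefSeq transcripts, and it lies inside the longer GENCODE antisense gene Gm15943. Gm41142 (Entrez 105245743) is a long non-coding RNA on chromosome 14 (44944490 to 44958462). Gm42035 (Entrez 105246811) and Gm29779 (Entrez 101056102) had no entry in the RefSeq gene table used here, and their place is known only from the order of genes in the deposited table, where 99.6% of consecutive genes with a RefSeq position on the same chromosome follow the order of their starts. By that order Gm42035 is listed on chromosome 8 and Gm29779 on chromosome 5, so the 6 genes are on 6 different chromosomes and none is on the X chromosome with Pbsn.

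Start regions from RefSeq (GRCm38.p6, 250 bases before and 50 after the annotated start, 5′ to 3′ on the strand of the gene) were at hand for 2 of the 6 genes, and that of Ptgdr is shown with them because Ptgdr and Gm41142 are compared below. In 1810062G17Rik (chr3:36475687-36475986, plus strand) the capitals mark the 49 bases that separate it from Anxa5, which is transcribed the other way. In Gm5615 (chr9:36541914-36542213, minus strand) the capitals mark the letters TATAAA, and in Ptgdr (chr14:44859326-44859625, minus strand) the first 50 transcribed bases.

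1810062G17Rik: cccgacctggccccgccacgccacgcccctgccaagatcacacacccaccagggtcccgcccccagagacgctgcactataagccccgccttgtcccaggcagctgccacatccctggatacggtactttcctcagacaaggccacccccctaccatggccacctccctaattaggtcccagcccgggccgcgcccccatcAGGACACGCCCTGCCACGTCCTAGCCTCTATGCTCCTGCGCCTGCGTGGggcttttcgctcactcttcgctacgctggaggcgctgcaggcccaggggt

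Gm5615: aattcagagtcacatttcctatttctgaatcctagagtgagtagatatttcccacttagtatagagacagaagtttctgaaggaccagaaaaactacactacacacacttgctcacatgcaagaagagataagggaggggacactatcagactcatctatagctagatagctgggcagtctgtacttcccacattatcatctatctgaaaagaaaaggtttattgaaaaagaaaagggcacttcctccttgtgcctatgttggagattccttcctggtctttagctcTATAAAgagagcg

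Ptgdr: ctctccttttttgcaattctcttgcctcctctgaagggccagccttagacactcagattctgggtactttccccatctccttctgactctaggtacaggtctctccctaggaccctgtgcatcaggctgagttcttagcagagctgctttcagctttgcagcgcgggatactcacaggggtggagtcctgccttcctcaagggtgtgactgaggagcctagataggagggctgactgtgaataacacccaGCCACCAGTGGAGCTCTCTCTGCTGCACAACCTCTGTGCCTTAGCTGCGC

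The 1810062G17Rik window holds 19 CG dinucleotides at a GC content of 67.3%, and 28.1% of the 32851 RefSeq start windows of the same length hold as many or more. The Gm5615 window holds 1 CG at a GC content of 40.3%, and 14.1% of windows hold no more than that. The Ptgdr window holds 3 CG at 54.7% GC. For all windows the median is 7 CG and 52.7% GC. TATAAA was searched on both strands and is found in 13.6% of all windows, and of the 3 shown only Gm5615 holds it, 38 bases past the annotated start. TGTTCT, the half-site letters read by the androgen receptor, was also searched on both strands, is found in 19.0% of all windows and is in none of the 3, which says only that these letters are absent from these 300 bases.

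Facts of the whole series bear on every value that follows. Pbsn, the gene that received the insertion, had a TPM of 97.8, 93.4, 93.0 and 173.8 in hSKP2-KI replicates 1 to 4 and of 3980, 9232, 4218 and 6506 in WT replicates 1 to 4 (log2 difference -5.66, standard error (SE) 0.27, limma adjusted p = 8.72e-07). Mouse Skp2 was higher, at 37.3 to 60.6 against 1.05 to 2.27 (log2 difference 4.16, limma adjusted p = 5.09e-07), and reads of the human and mouse sequences cannot be separated in it. Marker levels, in TPM as deposited, were set beside the genotypes. On that scale 32.7% of all tested genes were higher and 1.23% lower in hSKP2-KI mice at a limma adjusted p under 0.05. The median log2 difference of all tested genes was 0.23, and the marker lists were not counted under another scaling. The summed TPM of luminal epithelial markers was 2098 to 2265 in hSKP2-KI and 1752 to 1939 in WT mice (3 of 6 genes rose). That of ventral lobe secretory genes (Sbp, Sbpl, Spink1, Mme and Pbsn) was 321386 to 343646 against 413913 to 462970 (3 of 5 fell). Pbsn, which carries the insertion, is among the 3 that fell. Markers of other cell types were mostly higher in hSKP2-KI mice, namely urothelium (720 to 1014 against 398 to 662, 3 of 4), fibroblasts (759 to 1333 against 420 to 605, 6 of 6), smooth muscle (1634 to 2335 against 1062 to 1356, 4 of 4) and endothelium (22.8 to 40.9 against 12.7 to 17.8, 3 of 3). The ranges overlapped for basal epithelium (293 to 425 against 196 to 305, 2 of 4 rose), leukocytes (24.8 to 86.0 against 9.26 to 33.5, 1 of 5 rose), skeletal muscle (249 to 383 against 157 to 276, 1 of 3 rose) and adipocytes (36.1 to 187 against 23.2 to 141, 0 of 3 called). Seminal vesicle genes summed to at most 0.656 in any mouse, with Svs2, Svs3a and Pate4 at 0 throughout. Tgm4, a transglutaminase of the anterior and dorsolateral lobes, stood at 77.5 in hSKP2-KI replicate 1, at 4.99 to 6.74 in the other 3 hSKP2-KI mice and at 1.06 to 2.16 in WT mice. The part of these shifts in the results below was not tested, and in whole tissue fewer cells of a type and less RNA per cell cannot be told apart.

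Of the 36333 genes, 13080 reached 1 TPM or more in 4 or more of the 8 mice and were fitted with limma on log2(TPM + 1). At an adjusted p under 0.05, 32.7% of them were higher and 1.23% lower in hSKP2-KI mice, with a median log2 difference of 0.23. Median-ratio scaling, which moves the median to -0.01, called 6.92% higher and 4.25% lower. All 6 genes passed the filter, but 5 of them did so with only 4 or 5 mice at that level, that is, through the genotype in which they are high. In each of the 6 the values of the genotypes did not overlap. Among all tested genes 1.03% lay wholly below and 34% wholly above WT, and since the 6 were selected on this contrast nothing is read from their count.

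**Figure D1:**
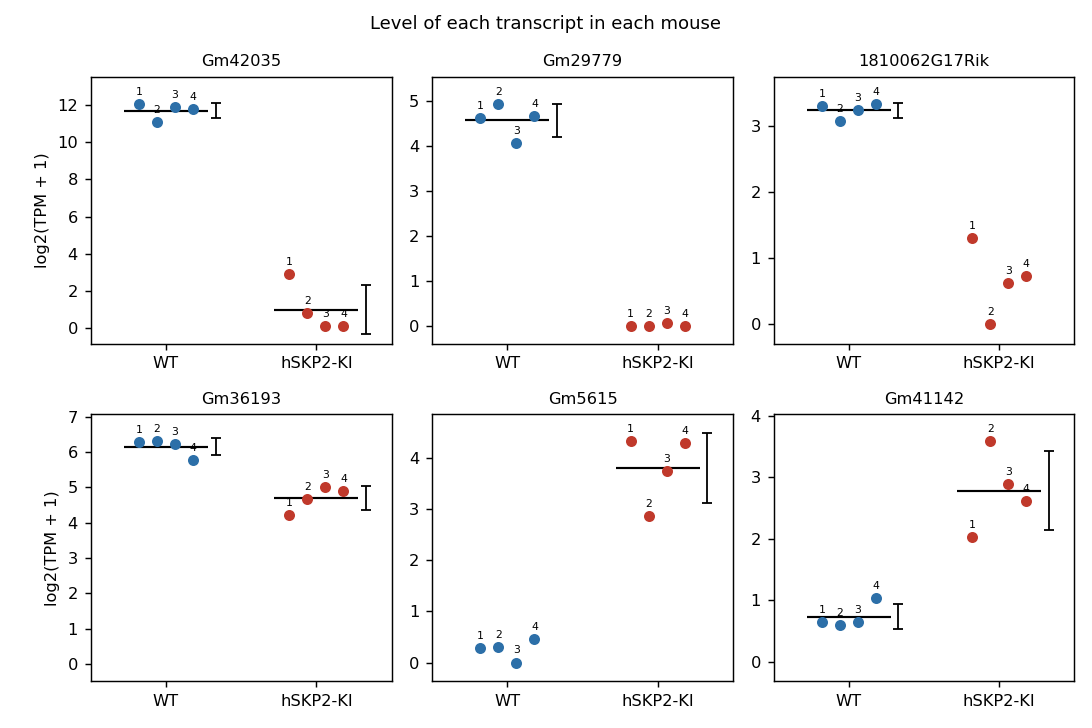
Level of each of the 6 transcripts on the log2(TPM + 1) scale in 4 WT (blue) and 4 hSKP2-KI (red) mice, with the replicate number above each point, and the mean (line) and SD (bar) for groups in which no mouse is at 0. The genotypes do not overlap in any panel, and hSKP2-KI replicate 1 stands above the other knock-in mice for Gm42035.

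Gm42035 was among the most abundant transcripts of the WT ventral prostate and was close to 0 in the knock-in. Its TPM was 4260, 2189, 3752 and 3515 in WT replicates 1 to 4 and 6.48, 0.787, 0.0878 and 0.1 in hSKP2-KI replicates 1 to 4. In the WT mice it took 0.343% of all TPM and ranked 11 among all genes by mean level, against rank 12160 in hSKP2-KI mice. The means were 3429 ± 883 (SD, n = 4) and 1.86 ± 3.10 (SD, n = 4), a log2 difference of -10.70 on the log2(TPM + 1) scale, in which the added 1 understates the change of a gene near 0. The lowest WT mouse was 337.6-fold above the highest hSKP2-KI mouse. hSKP2-KI replicate 1 stood apart from the other 3, which were all under 1, and without it the log2 difference was -11.34. The same mouse held the high Tgm4 value given above, and whether these go together was not tested.

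In WT mice Gm42035 did not keep a fixed proportion to Pbsn, an abundant transcript that also was lower in hSKP2-KI mice. The ratio of Gm42035 to Pbsn was 1.07, 0.237, 0.890 and 0.540 in WT replicates 1 to 4, because replicate 2 had the lowest Gm42035 and the highest Pbsn of the 4. In hSKP2-KI mice the ratio ran from 0.000575 to 0.0663, so it was lower in every knock-in mouse than in any WT mouse.

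The genes listed around Gm42035 did not show its loss. Chd9, a chromodomain helicase listed just before it, had a log2 difference of 0.17 (limma adjusted p = 0.36). By the order of starts Gm42035 may start within Chd9 (90828302 to 91054516), since the next listed gene starts at 91059351. Rbl2, which encodes the retinoblastoma-like pocket protein p130 and is listed 2 places after it, had a TPM of 43.1, 46.7, 54.5 and 46.2 in hSKP2-KI replicates 1 to 4 and of 26.1, 36.9, 31.0 and 33.1 in WT replicates 1 to 4. All 4 hSKP2-KI mice were above all WT mice, with a log2 difference of 0.57 (SE 0.11, limma adjusted p = 0.0049) and of 0.31 under median-ratio scaling (limma adjusted p = 0.0412). When TPM was rescaled without the 20 most abundant genes, the difference was 0.34 and no longer passed (limma adjusted p = 0.0739). Aktip, an AKT-interacting protein gene next to Rbl2, had a difference of 0.10 (limma adjusted p = 0.275). The lncRNA genes Gm35963, Gm19935 and Gm39221 were too low to be tested, with no mouse above 0.498.

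Gm29779 was a moderately expressed transcript in WT mice and was not seen in 3 of the 4 knock-in mice. Its TPM was 23.5, 29.5, 15.5 and 24.2 in WT replicates 1 to 4, and it was listed at 0, 0, 0.0410 and 0 in hSKP2-KI replicates 1 to 4. The WT mean was 23.2 ± 5.74 (SD, n = 4), rank 3919 among all genes, and the lowest WT mouse was 378.6-fold above the only hSKP2-KI mouse with a value. The log2 difference was -4.55 on the log2(TPM + 1) scale. A 0 in this table need not mean absence, since CYTB, COX1, ATP6 and other mitochondrial genes, which every cell uses, are also listed at 0 in all 8 mice.

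Listed next to Gm29779 are an lncRNA that rose and a predicted gene that was at 0 in all knock-in mice. If the listed order follows the starts, Gm29779 starts between 23692261 and 23701771, inside the span of that lncRNA. AI506816, an lncRNA gene on chromosome 5 (23692261 to 23712667) listed just before Gm29779, had a TPM of 14.6, 15.2, 14.9 and 16.3 in hSKP2-KI replicates 1 to 4 and of 6.95, 9.55, 7.64 and 6.55 in WT replicates 1 to 4. The hSKP2-KI mice were all above the WT mice, with a log2 difference of 0.91 (SE 0.11, limma adjusted p = 0.000844) that was 0.67 under median-ratio scaling (limma adjusted p = 0.00412). Gm42226, a predicted protein-coding gene listed just after Gm29779 and placed by RefSeq within the span of AI506816 (23701771 to 23705658), was listed at 0 in all 4 hSKP2-KI mice and at 0.710, 1.445, 0.723 and 1.088 in WT replicates 1 to 4. It was below the filter in too many mice to be tested, and its direction was that of Gm29779 and the opposite of AI506816. The library protocol does not say whether strand was kept, so reads of overlapping genes may not be separate. The protein-coding genes around them did not pass the test: Kmt2e, a chromatin regulator of the trithorax type (log2 difference 0.24, limma adjusted p = 0.205), Srpk2, a kinase of splicing factors (-0.01, limma adjusted p = 0.931), Pus7, a pseudouridine synthase (0.16, limma adjusted p = 0.220), and Rint1 (0.09, limma adjusted p = 0.580). Under quantile normalization Srpk2 passed as lower (-0.29, limma adjusted p = 0.0435).

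Of the 4 transcripts that were lower, 1810062G17Rik had the most even WT level. Its TPM was 8.90, 7.49, 8.49 and 9.18 in WT replicates 1 to 4, a mean of 8.52 ± 0.741 (SD, n = 4) with a coefficient of variation of 8.70%. In hSKP2-KI replicates 1 to 4 it was 1.468, 0, 0.537 and 0.652, so every knock-in mouse was below every WT mouse by at least 5.10-fold, and the log2 difference was -2.59. The function of its open reading frame was not looked up.

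Its neighbour Anxa5, annexin A5, a calcium-dependent phospholipid-binding protein, starts 49 bases away on the other strand and did not fall with it. Anxa5 had a TPM of 133.8, 153.7, 129 and 136 in hSKP2-KI replicates 1 to 4 and of 114, 115, 101 and 117 in WT replicates 1 to 4. The log2 difference of 0.30 (SE 0.08, limma adjusted p = 0.0175) was near the median of all genes, and it was 0.03 under median-ratio scaling (limma adjusted p = 0.828) and 0.06 under quantile normalization and under rescaling without the 20 most abundant genes, none of which passed. The ratio of 1810062G17Rik to Anxa5 was 0.0764 ± 0.0081 (SD, n = 4) in WT mice and between 0 and 0.0110 in hSKP2-KI mice. Exosc9, an RNA exosome subunit further along, had a difference of 0.22 (limma adjusted p = 0.204).

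Gm36193 was lower in the knock-in but far from 0. Its TPM was 76.5, 78.2, 74.3 and 54.1 in WT replicates 1 to 4 and 17.6, 24.3, 31.0 and 29.0 in hSKP2-KI replicates 1 to 4. The means were 70.8 ± 11.2 and 25.5 ± 5.95 (SD, n = 4 each), a ratio of 0.360 and a log2 difference of -1.45. WT replicate 4 was below the other WT mice but still 1.74-fold above the highest knock-in mouse. Of the 6 genes it is the only one above a TPM of 1 in all 8 mice.

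Of the genes around Gm36193, Anxa13 was also called lower. Fbxo32, which encodes the muscle-atrophy ubiquitin ligase subunit atrogin-1 and lies 31029 bases away, had a TPM of 80.8, 164, 91.4 and 113 in hSKP2-KI replicates 1 to 4 and of 167, 154, 137 and 156 in WT replicates 1 to 4. The ranges overlap because hSKP2-KI replicate 2 was at the WT level, and the log2 difference of -0.50 missed the threshold (limma adjusted p = 0.0533). It passed under median-ratio scaling (-0.76, limma adjusted p = 0.0293), and without hSKP2-KI replicate 2 it was -0.69 (limma adjusted p = 0.00529). Anxa13, an annexin of epithelial cells 88103 bases to the other side, had a TPM of 20.5, 25.7, 17.04 and 14.1 in hSKP2-KI replicates 1 to 4 and of 23.6, 29.7, 40.2 and 41.7 in WT replicates 1 to 4. Anxa13 fell, with 3 of 4 knock-in mice below all WT mice, by 0.77 on the log2 scale (SE 0.20, limma adjusted p = 0.0168) and by 1.03 under median-ratio scaling (limma adjusted p = 0.0140). Wdyhv1, an N-terminal glutamine amidase gene, had a difference of 0.01 (limma adjusted p = 0.933). Fam91a1 had one of -0.07 (limma adjusted p = 0.586), which became -0.33 and passed under median-ratio scaling (limma adjusted p = 0.0304).

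Gm5615, or Pate9, was near 0 in WT mice and was clearly present in all knock-in mice. Its TPM was 19.0, 6.24, 12.4 and 18.6 in hSKP2-KI replicates 1 to 4 and 0.216, 0.233, 0 and 0.368 in WT replicates 1 to 4. The hSKP2-KI mean was 14.1 ± 6.04 (SD, n = 4), the lowest knock-in mouse was 16.9-fold above the highest WT mouse, and the log2 difference was 3.54. The highest knock-in mouse was 3.05-fold the lowest, while the 4 transcripts that were lower in hSKP2-KI mice spread by at most 1.95-fold over the WT mice.

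The rest of the PATE family was at or near 0 in the same tissue. The table holds 14 PATE genes on chromosome 9, between positions 35607093 and 36638602. Of the 13 others, 10 were listed at 0 in all 8 mice, among them Pate4, a secreted protein of the seminal vesicle and prostate. The highest value of any was 1.44, for A630095E13Rik (Pate14), the family gene that lies 93790 bases from Gm5615, in hSKP2-KI replicate 1, the mouse with the high Tgm4 level. A630095E13Rik was at 0 in all WT mice, and no gene of the family other than Gm5615 reached the level needed for a test. Gm5615 was at 19.0 and 18.6 in hSKP2-KI replicates 1 and 4, where Tgm4 was at 77.5 and 5.76. Tgm4 was higher in all 4 knock-in mice than in any WT mouse, and whether Gm5615 goes with it was not tested.

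Gm41142 stood at about 1 TPM or less in WT mice and at several TPM in knock-in mice. Its TPM was 3.09, 11.0, 6.41 and 5.14 in hSKP2-KI replicates 1 to 4 and 0.553, 0.511, 0.563 and 1.05 in WT replicates 1 to 4. The means were 6.42 ± 3.37 and 0.669 ± 0.255 (SD, n = 4 each), a ratio of 9.59, a log2 difference of 2.05 and a distance of 2.94-fold between the nearest mice of the genotypes. Replicate 2 was the highest knock-in mouse and replicate 4 the highest WT mouse.

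The region of Gm41142 holds prostanoid receptor genes that were higher in the same mice. Ptgdr, the prostaglandin D2 receptor DP1, lies 85114 bases away and had a TPM of 6.13, 19.5, 12.0 and 11.2 in hSKP2-KI replicates 1 to 4 and of 0.874, 1.57, 1.08 and 1.95 in WT replicates 1 to 4. Ptgdr rose by 2.41 on the log2 scale (SE 0.27, limma adjusted p = 0.000567), and by 2.21 under median-ratio scaling (limma adjusted p = 0.00193). Its highest and lowest knock-in mice, replicates 2 and 1, were also the highest and lowest for Gm41142. The ratio of Gm41142 to Ptgdr was 0.504, 0.566, 0.533 and 0.458 in hSKP2-KI replicates 1 to 4 and 0.633, 0.326, 0.522 and 0.539 in WT replicates 1 to 4. Its means, 0.515 ± 0.0458 and 0.505 ± 0.129 (SD, n = 4 each), differed by less than the spread between mice. Ptger2, a prostaglandin E2 receptor 29648 bases to the other side, was too low to be tested, at 0.431 to 0.571 in hSKP2-KI and 0.0659 to 0.375 in WT mice, without overlap.

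Transcripts that overlap Gm41142 were low. Gm16976, a long gene model on the plus strand (44858581 to 44974958) that starts within Ptgdr and runs across Gm41142, had a TPM of 0.234, 0.895, 0.428 and 0.828 in hSKP2-KI replicates 1 to 4 and of 0, 0.179, 0 and 0.170 in WT replicates 1 to 4. 4930431P03Rik, an lncRNA that overlaps the end of Gm41142, was at 0.214 to 1.07 in hSKP2-KI and 0.0377 to 0.111 in WT mice. Both were higher in all knock-in mice than in any WT mouse, and neither was tested. Because strand may not have been used, their reads and those of Gm41142 may not be separate. Txndc16, a thioredoxin-domain protein gene 175985 bases away, rose by 0.73 on the log2 scale (SE 0.15, limma adjusted p = 0.00669), and by 0.53 under median-ratio scaling (limma adjusted p = 0.0267).

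The genes around the 6 were also counted together. Of 39 such genes, 3 on each side plus any that overlap, 16 could be tested and 6 were called, 5 higher and 1 lower, which is 37.5% beside 33.9% of all genes tested. Under median-ratio scaling 7 were called, 4 higher and 3 lower (43.8%, beside 11.2% of all genes). The 23 that could not be tested include all 6 neighbours of Gm5615. In the plot of the tested neighbours, Ptgdr is the only one with a log2 difference above 1 in size.

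**Figure D2:**
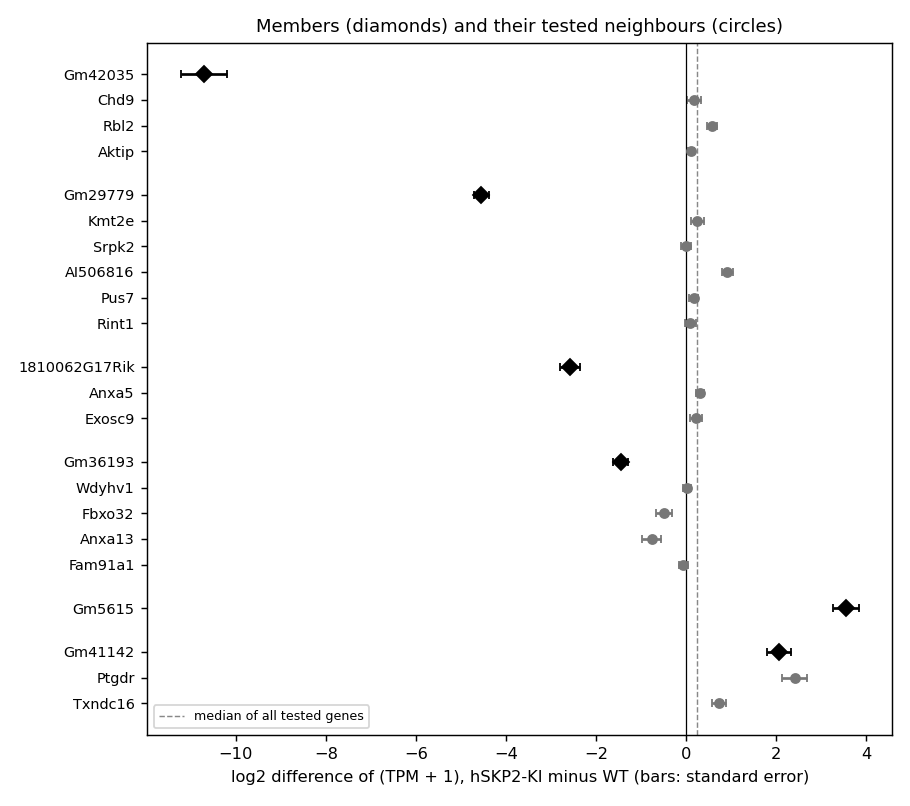
Log2 difference of (TPM + 1) between hSKP2-KI and WT mice for each of the 6 genes (diamonds) and their tested neighbours (circles), with the SE as bars and the median of all tested genes as a dashed line. The neighbours of the 4 transcripts that were lower lie between -0.77 and 0.91, while Ptgdr at 2.41 is close to Gm41142 at 2.05.

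**Figure D3:**
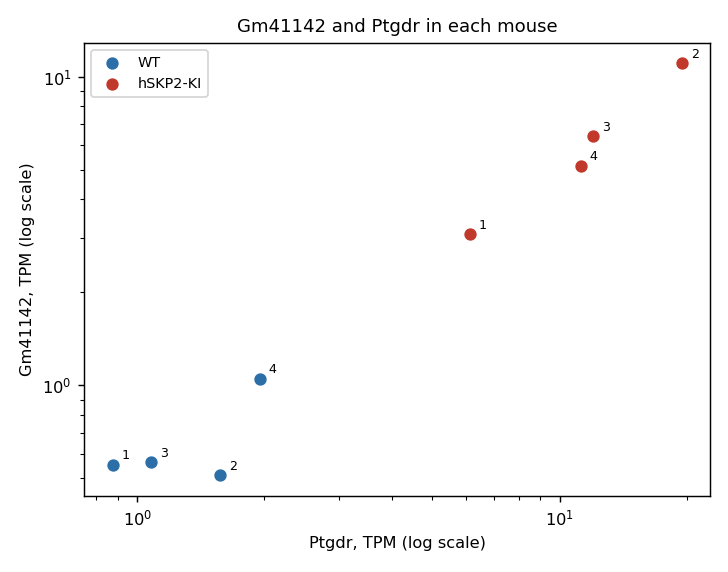
TPM of Gm41142 against that of Ptgdr in each of the 8 mice, both on log axes, with replicate numbers. All knock-in mice (red) lie above and to the right of the WT mice (blue), and the ratio of the levels lies between 0.326 and 0.633 in every mouse.

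Set beside other genes with provisional names, the 6 differed widely, as their selection requires, but others went further than some of them. 5830444B04Rik (-1.97) fell by more than Gm36193 (-1.45), and 9530053A07Rik (2.52) rose by more than Gm41142 (2.05). The table holds 9890 other Gm genes, of which 328 (3.32%) were tested. Of these 56 were higher and 10 lower (20.1%, beside 33.9% of all genes tested), with a median log2 difference of 0.14. Of 2252 other Rik genes 440 were tested. Of those 106 were higher and 4 lower (25%, beside the same 33.9%), with a median of 0.19. Under median-ratio scaling the counts were 15 higher and 18 lower for Gm genes (10.1%). For Rik genes they were 21 higher and 11 lower (7.27%), and 11.2% of all genes were called. A median near 0 under that scaling, -0.02 for Gm genes and -0.03 for Rik genes, compares with -0.01 over all genes. Without hSKP2-KI replicate 4 the calls numbered 43 for Gm and 71 for Rik genes, without WT replicate 3 they numbered 46 and 64, and without hSKP2-KI replicate 1 they numbered 55 and 90.

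**Figure D4:**
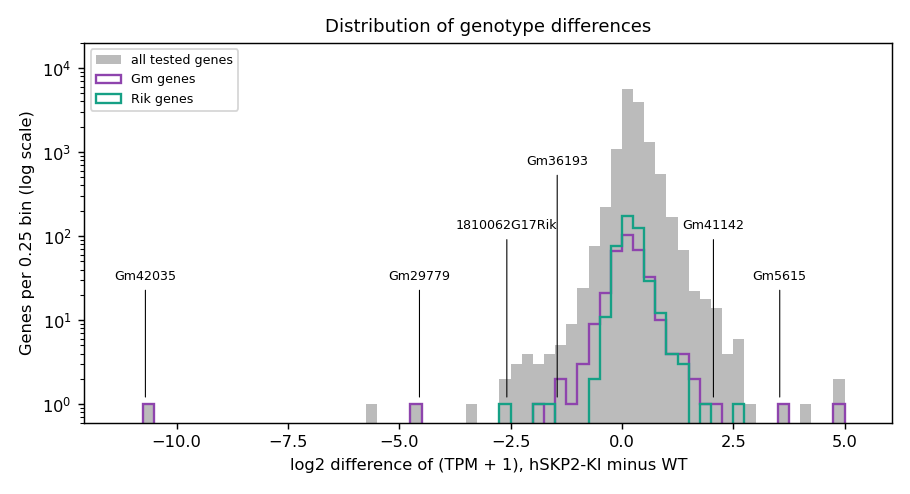
Number of genes (log axis) in bins of 0.25 of the log2 difference of (TPM + 1) between hSKP2-KI and WT mice, for all 13080 tested genes (grey) and for Gm (purple) and Rik (green) genes, the 6 named genes included. Gm42035 and Gm29779 lie far to the left of the other Gm genes, at -10.70 and -4.55.

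A distance between the genotypes in which the lowest mouse of the higher group was at least 10 times the highest mouse of the lower group was seen for 10 tested genes (0.0765%). They were Gm42035, Gm29779, Gm5615, Pbsn, Skp2, Lrrc31, Xlr3c, LOC102640328 (Gm5401 in RefSeq), 3100003L05Rik and 5830444B04Rik. As listed, 5 of the 10 carry Gm or Rik names, beside 328 other Gm and 440 other Rik genes among the 13080 tested. Of these 5, 3 are among the 6 described here, which were selected on this contrast, so nothing is read from the count. At a distance of at least 5 times there were 18 genes (0.138%), which added 1810062G17Rik, and at 2 times 72 (0.55%), which added Gm41142. Gm36193 fell short of that distance.

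Other provisionally named genes also separated the genotypes. The 5 largest falls among genes without overlap were 5830444B04Rik (listed at 0 in all hSKP2-KI mice and 1.1 to 6.76 in WT mice, log2 difference -1.97, limma adjusted p = 0.00291), Gm36673 (-1.82), 1110019D14Rik (-1.70), Gm15471 (-1.04) and Gm42293 (-0.90). The 5 largest rises were 9530053A07Rik, 3100003L05Rik (1.94), Gm30548 (1.80), Gm16559 (1.74) and Gm2573 (1.60). 9530053A07Rik had a log2 difference of 2.52 (limma adjusted p = 0.0402) and was at 104.7 in hSKP2-KI replicate 1, at 3.62 to 5.41 in the other knock-in mice and at most 2.05 in WT mice. Without hSKP2-KI replicate 1 its difference was 1.45 and still passed (limma adjusted p = 0.0102), but it did not pass without any single WT mouse (limma adjusted p from 0.0603 to 0.0981) or under median-ratio scaling (2.34, limma adjusted p = 0.119). None of these genes reached the size of the differences of Gm42035, Gm29779 or Gm5615. Genes whose genotypes overlap were left out of this list. Among them Gm40812 (log2 difference 4.9, limma adjusted p = 0.0122) had a difference larger in size than those of Gm29779 and Gm5615.

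The genes with the most similar pattern over the 8 mice were taken as those with the smallest root mean square difference of centred log2(TPM + 1). For Gm42035 and Gm29779 these were Pbsn and Slc6a2, the noradrenaline transporter, but at 2.75 and 3.79 for Gm42035 no gene was close, and at 0.665 and 0.768 for Gm29779 the match was looser than for the rest. For 1810062G17Rik they were Dlx5, a homeobox factor (0.375), and Defb28, a beta-defensin (0.494). For Gm36193 they were Olfml3, a secreted olfactomedin-domain protein (0.260), and Cth, the cystathionine gamma-lyase of cysteine synthesis (0.290). For Gm5615 they were Lrrc31 (0.557) and Skp2 (0.577). For Gm41142 they were Ptgdr (0.226) and Ccl6, a chemokine (0.247), so its neighbour on the chromosome was also the gene most like it among all those tested. With mice in 2 groups of 4, this likeness is largely set by the difference between genotypes.

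Both genotypes are labelled FVB/N, and genes known to vary between inbred strains in copy number, sequence or retrocopies were looked at beside the 6. Of these, Eno1, Eno1b, Eif3j1 and Eif3j2 were listed because they were known from earlier results of these same data. Eno1b, a near-identical paralog of the glycolytic enzyme gene Eno1, was at 61.7 to 84.1 in hSKP2-KI mice and at 0, 32.96, 0 and 0.0491 in WT replicates 1 to 4. Eno1 had a TPM of 107 to 145 in hSKP2-KI and 155.8 to 210.9 in WT mice (log2 difference -0.52, limma adjusted p = 0.00856), and the sum of the pair was 201 ± 28.01 and 190.7 ± 14.0 (SD, n = 4 each). Eif3j1, a translation initiation factor subunit gene, was at 36.3 and 71.6 in WT replicates 3 and 4 and at most 0.0404 in the other 6 mice, while its paralog Eif3j2 was at 34.7 and 0.0713 in those WT mice and at 68.0 to 81.5 in the others. The sum of Eif3j1 and Eif3j2 was 79.3 ± 3.59 in hSKP2-KI and 72.8 ± 5.46 in WT mice (SD, n = 4 each). Reads of such paralogs can be split by the counting, so their single values are uncertain.

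The WT mice differed among themselves at Eno1b, Eif3j1 and Eif3j2. For each of the 6 transcripts every WT mouse was on the WT side, but the 6 were selected on this contrast, so nothing is read from that. WT replicate 2 had Eno1b at 32.96, between the other WT mice and the knock-in mice. Its Gm42035 was the lowest of the WT mice at 2189, but its Gm29779 was the highest at 29.5. Both of these were far from the knock-in values. WT replicates 3 and 4, the mice with Eif3j1, were within the range of the other WT mice for Gm42035. WT replicate 3 had the lowest Gm29779 of the WT mice at 15.5, and WT replicate 4 was the WT mouse nearest to the knock-in for Gm36193 at 54.1 and for Gm41142 at 1.05. Whether these values go with Eif3j1 was not tested. Gm40812, a predicted gene singled out after its values were seen, was at 314.1 to 457.7 in hSKP2-KI mice and at 7.53, 1.14, 322.5 and 3.87 in WT replicates 1 to 4, so WT replicate 3 alone was at the knock-in level (log2 difference 4.93, limma adjusted p = 0.0122). Among other strain-variable genes, Nnt, the mitochondrial transhydrogenase that some strains lack, was at 38.5 to 46.2 in all mice (log2 difference -0.01, limma adjusted p = 0.91), and under median-ratio scaling it was called lower (-0.28, limma adjusted p = 0.0461). Hc and Pde6b were at or near 0, and Glo1 had a difference of 0.33 (limma adjusted p = 0.0140) that was 0.06 and did not pass under median-ratio scaling (limma adjusted p = 0.658). Whether the mice differ in genetic background at the 6 genes was not tested, and any such difference that follows the genotype cannot be told apart from the knock-in.

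**Figure D5:**
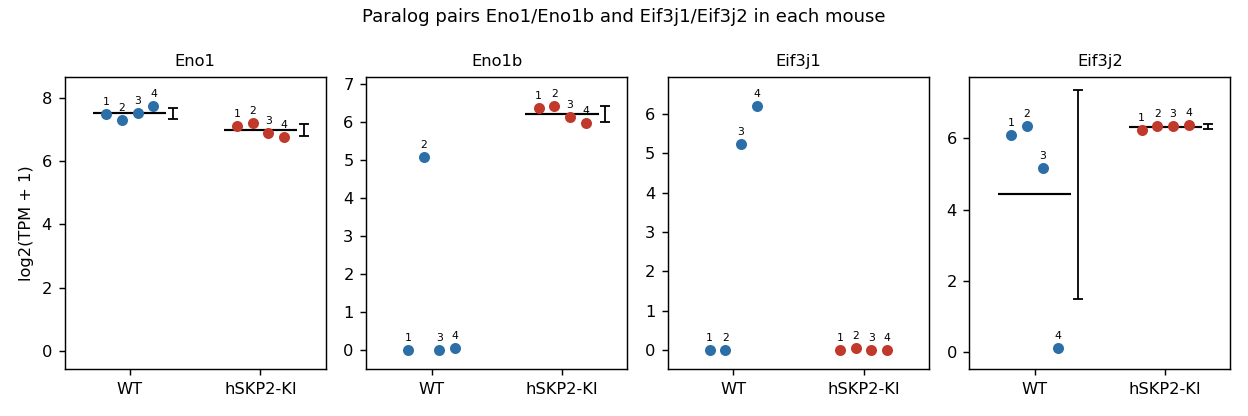
Level on the log2(TPM + 1) scale of Eno1, Eno1b, Eif3j1 and Eif3j2 in 4 WT (blue) and 4 hSKP2-KI (red) mice, with replicate numbers above the points, and the mean (line) and SD (bar) for groups in which no mouse is at 0. The knock-in mice are alike for each gene, while WT replicate 2 alone has Eno1b at 32.96 and WT replicates 3 and 4 alone have Eif3j1.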

How the data were processed

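RNA from the ventral prostate of 4 hSKP2-KI and 4 WT mice was sequenced by the authors, who trimmed paired-end reads and mapped them in CLC software. The submitters' processing notes name the builds mm10 and GRCm38. The software version, annotation, strand and counting options are not given in the sources used here. The authors deposited a table of TPM for 8 samples, which was used as deposited.

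Samples were grouped by the genotype in their labels. The 13080 genes at 1 TPM or more in 4 or more samples were fitted with limma 3.58.1 in R 4.3.3 on log2(TPM + 1), with a mean-variance trend, and Benjamini-Hochberg adjustment ran over all of them, with a threshold of 0.05. The procedure was tested on simulated data. The members and all lists were chosen with earlier results of these data known. Named genes were the 6 members, the 3 nearest genes on each side and any that overlap, Pbsn, Skp2 and a list of strain-variable genes, for each member the 2 genes of most similar pattern, and the 5 other Gm or Rik genes with the largest fall and the 5 with the largest rise among called genes without overlap between genotypes. Positions and start sequences are from RefSeq GRCm38.p6, with strands and exons from GENCODE M21 (GRCm38). Of the genes in the table, 35337 were matched to RefSeq by Entrez identifier. For Gm42035 and Gm29779, which had no match, neighbours were taken from the order of the deposited table. H2-Ea, a gene of the strain-variable list, was not found under that symbol.

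As alternatives, the pseudocount was set to 0.1, the filter was dropped or replaced by a minimum mean of 5 TPM, and TPM was rescaled by median ratios, by quantiles, or after setting aside the 20 most abundant genes. A replicate block was added, and each sample was left out once. Plots used matplotlib 3.10.9 (Python 3.11.15).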

Additional observations from a re-analysis of the deposited data

Results flagged for a closer look

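In 92 groups of 4 mice, for the 6 members and the tested genes of the lists above, 10 had a mouse far from the other 3. The measure was Dixon's criterion, which chance meets in about 1 of 20 groups. That rate need not hold for groups near 0. Tgm4 and Gm40812 were not among the groups looked at. For the transcripts themselves, Gm42035 was at 6.48 in hSKP2-KI replicate 1 (0.0878 to 0.787 in the other knock-in mice), Gm29779 at 0.0410 in hSKP2-KI replicate 3 (0 in the others), Gm36193 at 54.1 in WT replicate 4 (74.3 to 78.2 in the other WT mice) and Gm41142 at 1.05 in WT replicate 4 (0.511 to 0.563 in the others). In every case the mouse was still on the side of its own genotype, as the selection of the 6 requires.

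Among the other genes, Pbsn was at 173.8 in hSKP2-KI replicate 4 (93.0 to 97.8 in the others), Eif3j2 at 73.9 in hSKP2-KI replicate 1 (80.7 to 81.5), 9530053A07Rik at 104.7 in hSKP2-KI replicate 1 (3.62 to 5.41) and 3100003L05Rik at 8.61 in hSKP2-KI replicate 4 (1.61 to 2.58). In WT mice, Eno1b was at 32.96 in replicate 2 (0 to 0.0491 in the others) and Wdyhv1 at 18.03 in replicate 1 (19.1 to 19.4).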

How the results depend on the processing

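The 6 transcripts kept their direction under every alternative that gave a value. With a pseudocount of 0.1 the log2 differences were -12.25 for Gm42035, -7.70 for Gm29779, -4.04 for 1810062G17Rik, 5.61 for Gm5615 and 2.99 for Gm41142, and with TPM rescaled without the 20 most abundant genes they were -5.56 for Gm29779, -3.25 for 1810062G17Rik and 4.09 for Gm5615. Leaving out a mouse gave -11.34 to -10.41 for Gm42035, -4.72 to -4.42 for Gm29779, -2.80 to -2.36 for 1810062G17Rik, -1.58 to -1.29 for Gm36193, 3.37 to 3.86 for Gm5615 and 1.79 to 2.30 for Gm41142. A minimum mean of 5 TPM left out 1810062G17Rik and Gm41142. SDs and ranks rest on 4 mice a genotype, and TPM gives no depth, so values near 0 have no interval.

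The number of all genes called, 4433, was 1461 under median-ratio scaling, 1325 under quantile normalization, 1330 without the 20 most abundant genes and 2993 to 4677 with a mouse left out. The 66 calls among other Gm genes became 137 without a filter, 24 with the mean filter, 33, 36 and 29 under those 3 scalings, and 43 to 57 with a mouse left out. The 110 among Rik genes became 69 with the mean filter, 32, 37 and 33 under the scalings, and 64 to 106 with a mouse left out. The 6 called neighbours were 6 or 7 with a mouse left out. The cause of these changes was not tested.

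Whether the replicate numbers pair the mice was not settled. The correlation of same-numbered mice after subtracting genotype means, across genes, was 0.22, -0.11, 0.17 and -0.01. It was not compared with that of differently numbered mice. With the replicate block 5128 genes were called in all, 75 among Gm genes, 130 among Rik genes and 7 among neighbours, where Fbxo32 was added (limma adjusted p = 0.0436). Of 40 named genes tested, 28 were called. Of these, 28 were called with the block, 25 under median-ratio scaling and under quantile normalization, and 24 without the 20 most abundant genes. With a minimum mean of 5 TPM 17 were called, and the other 11 did not reach that mean. Over all genes the calls went from 4433 to 1461 under median-ratio scaling. Many named genes were listed because they were called or resembled the members, so nothing is read from how many stayed called.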
